A study of Mus musculus with 24 samples.

Results

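A set of 8 mouse genes of cholesterol synthesis and its control by SREBP2 were followed across 24 RNA libraries labelled brown adipose tissue (BAT). They were the rows of the deposited count table whose Ensembl identifiers map to Srebf2, Insig1, Hmgcs1, Idi1, Fdft1, Sqle, Lss and Cyp51, which is 8 of the 12615 genes in the table. All 8 passed the filter on low counts that left 12485 genes for testing. The libraries came from 4 groups of 6 mice, Cre- and BATdKO at 30°C and Cre- and BATdKO at 8°C. All mice carried floxed alleles of both TBLR1 and TBL1 (genes Tbl1xr1 and Tbl1x), were C57BL6/N, and received tamoxifen, including the Cre- controls. BATdKO mice also carried Ucp1-CreERT2, a recombinase driven by the Ucp1 promoter and so directed at thermogenic adipocytes only. Housing began 3 weeks after the last tamoxifen dose and lasted 4 days at 30°C, or 6 days at 8°C after a stepwise descent. The labels describe females and tamoxifen at 5 years of age, where the study's text gives weeks, males and a shorter time at 8°C, so age, sex and days are given here only as labelled. The comparisons ask how these genes differ with cold in each genotype and with genotype at each temperature.

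Cells make cholesterol from acetyl units through the mevalonate pathway and the sterol branch that follows squalene. When sterols in the endoplasmic reticulum run low, the membrane-bound factor SREBP2 is carried to the Golgi and cut, and its released part switches on nearly every enzyme of the pathway together with INSIG1. INSIG1 holds SREBP2 back when sterols are plentiful. Liver is a major site of this synthesis, and brown fat takes up and stores lipid as fuel for heat, with SREBP1 driving the parallel programme of fatty acid synthesis.

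SREBP2 binds sterol regulatory elements in promoters, often beside sites for NF-Y (CCAAT) and SP1 (GGGCGG). RefSeq promoter windows (GRCm38.p6) were matched for 6 of the 8 genes, all but Fdft1 and Sqle, and the 250 bases before each start site were searched on both strands for TCACNCCAC and CACCCCAC, which are forms of the sterol element and can overlap, and for CCAAT and GGGCGG. The promoters of Hmgcs1 and Insig1 are shown because Hmgcs1 was called with cold and Insig1 had the largest fitted difference by genotype, and because they differ in this search. Capitals mark every match, on either strand. The Hmgcs1 window lies on the + strand at chr13:119690101-119690350, and the Insig1 stretch on the + strand at chr5:28071162-28071362, where it is cut short at the annotated start of the gene.
Hmgcs1: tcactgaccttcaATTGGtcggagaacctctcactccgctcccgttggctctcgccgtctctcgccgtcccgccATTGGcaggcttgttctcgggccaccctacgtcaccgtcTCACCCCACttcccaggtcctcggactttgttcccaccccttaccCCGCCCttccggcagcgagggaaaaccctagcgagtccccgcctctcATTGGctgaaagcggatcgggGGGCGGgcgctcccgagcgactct
Insig1: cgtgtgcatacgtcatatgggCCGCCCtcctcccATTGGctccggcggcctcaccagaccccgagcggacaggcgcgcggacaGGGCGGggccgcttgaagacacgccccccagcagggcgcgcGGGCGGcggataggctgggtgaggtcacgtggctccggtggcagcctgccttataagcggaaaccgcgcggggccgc
Hmgcs1 was the 1 gene of 6 that held a sterol element form, with both forms overlapping between 137 and 129 bases before the start. Among all 32851 promoters of this length, 1.05% held TCACNCCAC and 2.58% held CACCCCAC. All 6 windows held CCAAT and all 6 held GGGCGG, which 33.8% and 32.7% of all promoters held. For Idi1 every match, and for Cyp51 the CCAAT match, lay inside the gene as annotated rather than before its annotated start. So did the Srebf2 matches of GGGCGG that begin 79, 52 and 34 bases before the RefSeq start site. These are matches of letters only, and the other 5 promoters may hold other forms.

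Total counts ran from 699703 in mouse m4 of the Cre- 30°C group, the shallowest library, to 11527643, and the lowest count of any of the 8 genes in a library was 9. The targeted genes went against the labels. At 8°C Tbl1xr1 was higher under the BATdKO label (39.8 ± 4.01 CPM, SD, n = 6, where CPM is counts per 1000000 after scaling) than under the Cre- label (20.9 ± 2.24, n = 6). At 30°C mouse m6 labelled Cre- had 38.6 CPM of Tbl1xr1 and mouse m6 labelled BATdKO had 17.0, each within the range of the other label. Tbl1x was also higher under the BATdKO label at 8°C (53.8 ± 6.75 CPM against 40.7 ± 1.88, SD, n = 6 each). The same 2 m6 libraries at 30°C had 53.5 (Cre-) and 39.7 (BATdKO) CPM of Tbl1x. They had 548 and 84.7 CPM of Ucp1, the highest and the lowest of their labelled groups. Whether these 2 labels were exchanged was not tested. The 3′ tags may lie outside the deleted exons, whose position the sources used here do not give, and they would then not show the deletion. Why both genes were higher under the BATdKO label at 8°C was not tested, nor was an exchange of labels between whole groups. Groups are named as labelled throughout, and the direction of every genotype difference rests on those labels.

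The tissue label was also checked. All 12 hepatocyte markers were detected in every library and together held 3.31% to 4.87% of counts, against 0.0724% to 0.601% for the 10 brown adipocyte markers. Alb, serum albumin, exceeded Ucp1 in 24 of 24 libraries. Ucp1, the uncoupling protein that defines brown fat, rose with cold from 177 ± 186 to 1539 ± 375 CPM in Cre- and from 290.0 ± 123 to 1685 ± 293 CPM in BATdKO (SD, n = 6 each, chosen as named markers after values were seen). The summed hepatocyte level per library ranged from 3.44% to 4.81% in Cre- 30°C, 3.31% to 4.19% in BATdKO 30°C, 3.71% to 4.39% in Cre- 8°C and 3.78% to 4.87% in BATdKO 8°C. Since hepatocytes make cholesterol too, the cells in which the 8 transcripts arose cannot be told apart in these bulk libraries, nor can fewer cells of a type be told from less RNA per cell.

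**Figure D1:**
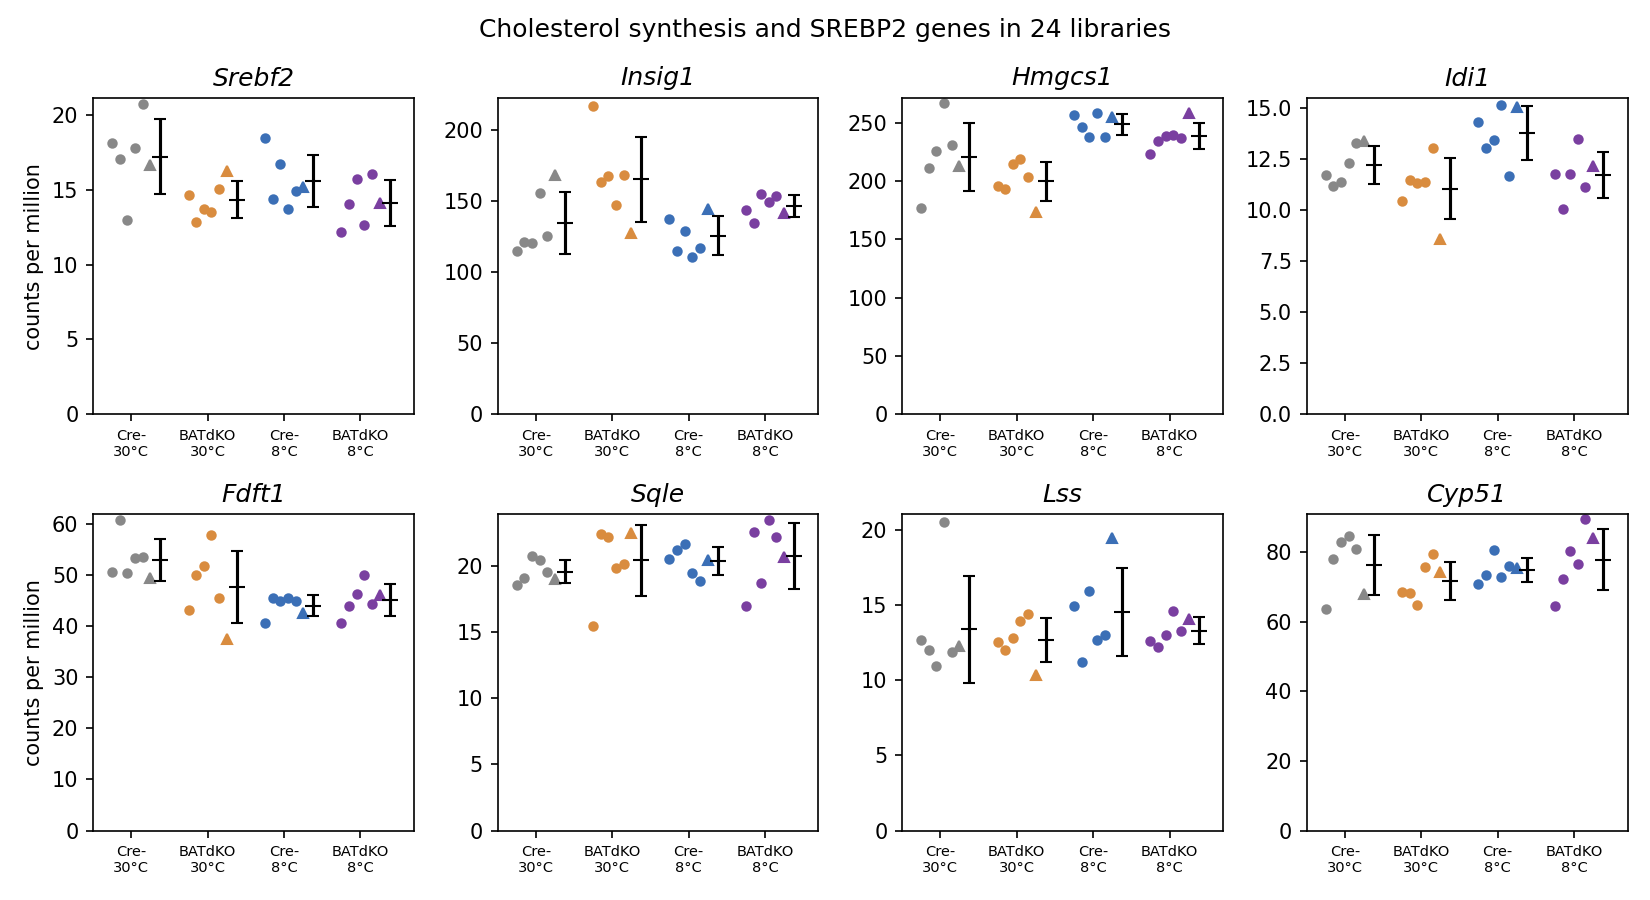
Level of each of the 8 genes in every library (vertical axis, counts per 1000000, CPM, from 0; horizontal axis, the 4 groups). Points are mice m1 to m5, triangles are mouse m6, and the bar beside each group is the mean ± SD of 6 mice; the highest group mean of a gene was at most 1.32 times its lowest.

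Srebf2, which encodes the SREBP2 precursor (chr15:82147181-82205379, + strand), showed no call. Levels (lowest, median and highest mouse) were 13.0, 17.4 and 20.7 CPM in Cre- 30°C, 12.9, 14.2 and 16.2 in BATdKO 30°C, 13.7, 15.0 and 18.5 in Cre- 8°C, and 12.2, 14.1 and 16.0 in BATdKO 8°C. The groups overlapped in all comparisons. At 30°C the fitted log2 difference, BATdKO minus Cre-, was -0.26 (SE 0.10, unadjusted p = 0.0174 and adjusted p = 0.360 by edgeR's quasi-likelihood test), which did not pass the threshold of 0.1. At 8°C it was -0.13 (95% interval -0.34 to 0.09).

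Insig1, whose product retains the SREBP2 complex in the endoplasmic reticulum (chr5:28071363-28078662, + strand), had higher means under the BATdKO label at both temperatures, but neither difference passed the test. The lowest, median and highest mice had 115, 123 and 168 CPM in Cre- 30°C and 128, 165 and 217 in BATdKO 30°C. At 8°C they were 110, 123 and 144 CPM in Cre- and 134, 146 and 155 in BATdKO, with 3 of 6 BATdKO mice above every Cre- mouse. The log2 difference was 0.31 (SE 0.11, edgeR unadjusted p = 0.00773, adjusted p = 0.283) at 30°C and 0.22 (SE 0.11, unadjusted p = 0.0484, adjusted p = 0.534) at 8°C, and the 2 differences themselves differed by -0.09, 8°C minus 30°C (SE 0.15, edgeR adjusted p = 0.935). At 30°C the highest Cre- mouse and the lowest BATdKO mouse were the 2 m6 libraries whose Tbl1xr1 lay with the other label. Without both, a choice made after seeing the data, the Insig1 difference at 30°C was 0.46 (SE 0.10, edgeR adjusted p = 0.00999), and 500 of 12500 genes (4.0%) were called in place of 0. Leaving out the Cre- m6 mouse alone gave 0.40 (edgeR adjusted p = 0.0476). Brown adipocyte markers moved with this contrast: 8 of 10 were higher in BATdKO at 30°C, with a median log2 difference of 0.43, 0 called and 4 with an unadjusted p under 0.05 in edgeR. Of all 12485 genes, 1303 had such a p. The part of these markers in the Insig1 difference was not tested.

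Hmgcs1, the cytosolic synthase that makes HMG-CoA at the entry to the mevalonate pathway (chr13:119690379-119708260, + strand), rose with cold in the BATdKO-labelled mice. Its exons overlap those of Gm48342 on the other strand. In BATdKO the lowest, median and highest mice had 173, 200 and 219 CPM at 30°C and 223, 238 and 258 at 8°C. Every BATdKO mouse at 8°C lay above every BATdKO mouse at 30°C. In Cre- mice the levels were 177, 219 and 267 CPM at 30°C and 238, 251 and 258 at 8°C, and these groups overlapped. The log2 change with cold was 0.26 (SE 0.07, 95% interval 0.10 to 0.41, edgeR adjusted p = 0.0477) in BATdKO and 0.18 (SE 0.08, 0.03 to 0.34, adjusted p = 0.169) in Cre-. The interaction, the BATdKO change minus the Cre- change, was 0.07 (SE 0.11, edgeR adjusted p = 0.911), so the 2 changes were not shown to differ. DESeq2 called Hmgcs1 in both genotypes (adjusted p = 0.0141 in BATdKO and 0.0870 in Cre-).

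With 1 mouse left out at a time, the Hmgcs1 call in BATdKO was kept in 21 of 24 fits, with log2 changes from 0.21 to 0.28. Fits without a Cre- mouse left both BATdKO groups whole and test this call little. Every loss among the 24 fits came from leaving out a BATdKO mouse. The call was lost without BATdKO 30°C m2 (0.24, edgeR adjusted p = 0.124), without BATdKO 30°C m6 (0.21, adjusted p = 0.133), without BATdKO 8°C m6 (0.23, adjusted p = 0.126) and, in a separate fit, without both 30°C m6 mice (0.21, adjusted p = 0.138). In Cre- mice leaving out the shallow m4 library, the highest at 30°C, gave a change of 0.24 (edgeR adjusted p = 0.0450). Hepatocyte markers moved with the BATdKO contrast: 10 of 12 were higher at 8°C, with a median log2 change of 0.16, 0 called and 5 with an unadjusted p under 0.05 in edgeR. Of all 12485 genes, 2145 had such a p in that contrast. In Cre- 11 of 12 hepatocyte markers were lower at 8°C, with a median of -0.05. With the mean level of these markers as a covariate, added after seeing the data, the Hmgcs1 change was 0.13 (SE 0.06, edgeR adjusted p = 0.352) in BATdKO and 0.21 (SE 0.06, adjusted p = 0.0169) in Cre-.

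Idi1, the isomerase that converts the pathway's first isoprene unit (chr13:8885501-8892451, + strand), had its lowest group mean in BATdKO 30°C and was called in no comparison. Its exons overlap those of Gm48574 on the other strand. From the lowest through the median to the highest mouse, levels were 11.2, 12.0 and 13.4 CPM in Cre- 30°C, 8.56, 11.4 and 13.0 in BATdKO 30°C, 11.7, 13.9 and 15.1 in Cre- 8°C, and 10.0, 11.8 and 13.5 in BATdKO 8°C. At 8°C the BATdKO minus Cre- difference was -0.24 (SE 0.10, edgeR unadjusted p = 0.0236, adjusted p = 0.390), and 2 of 6 BATdKO mice lay below every Cre- mouse. With cold the log2 change was 0.18 (95% interval -0.03 to 0.39) in Cre- and 0.08 (-0.13 to 0.29) in BATdKO, and neither passed the test.

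Fdft1, squalene synthase, the first enzyme committed to sterols (chr14:63145150-63179578, - strand), fell with cold in Cre- mice. Cre- mice had a lowest, median and highest level of 49.3, 52.0 and 60.7 CPM at 30°C and 40.7, 44.9 and 45.5 at 8°C, so that every mouse at 8°C lay below every mouse at 30°C. In BATdKO they were 37.6, 47.8 and 57.7 CPM at 30°C and 40.5, 45.1 and 50.0 at 8°C, and the groups overlapped. The log2 change with cold was -0.27 (SE 0.08, 95% interval -0.44 to -0.09, edgeR adjusted p = 0.0573) in Cre- and -0.08 (SE 0.08, adjusted p = 0.712) in BATdKO, and the interaction was 0.19 (SE 0.12, adjusted p = 0.702). The call was lost without Cre- 30°C m2 (-0.22, edgeR adjusted p = 0.146), Cre- 8°C m1 (-0.24, adjusted p = 0.128) or Cre- 8°C m6 (-0.26, adjusted p = 0.114). It was kept in the other 21 of 24 such fits, but those without a BATdKO mouse left both Cre- groups whole and test it little. The call was also kept with the hepatocyte covariate (-0.26, edgeR adjusted p = 0.0332). That covariate moved the BATdKO change to -0.17 (SE 0.08, edgeR unadjusted p = 0.0488, adjusted p = 0.380) and the interaction to 0.09, and without both 30°C m6 mice the BATdKO change was -0.14 (adjusted p = 0.396). Exons of Fdft1 overlap those of Ctsb on the other strand, and whether counting used strand is not given in the sources used here. Ctsb itself changed by 0.08 with cold in Cre- (SE 0.11, edgeR adjusted p = 0.786).

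Sqle, squalene epoxidase, a rate-controlling oxygen-dependent step (chr15:59315077-59331192, + strand), had the smallest spread of group means of the 8 genes, its highest being 1.06 times its lowest. Its lowest, median and highest levels were 18.6, 19.4 and 20.8 CPM in Cre- 30°C, 15.5, 21.2 and 22.5 in BATdKO 30°C, 18.9, 20.5 and 21.7 in Cre- 8°C, and 17.0, 21.5 and 23.5 in BATdKO 8°C. The groups overlapped throughout. The change with cold was 0.06 in Cre- (95% interval -0.12 to 0.25) and 0.04 in BATdKO (-0.14 to 0.22).

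Lss, lanosterol synthase, closes the sterol rings (chr10:76531588-76557138, + strand, with exons overlapping 4930483K19Rik on the other strand). Its lowest, median and highest levels were 10.9, 12.1 and 20.5 CPM in Cre- 30°C, 10.4, 12.7 and 14.4 in BATdKO 30°C, 11.2, 14.0 and 19.5 in Cre- 8°C, and 12.2, 13.1 and 14.6 in BATdKO 8°C. The 20.5 came from the shallow m4 library, where it rested on 15 counts. The change with cold in Cre- was 0.23 (SE 0.12, 95% interval -0.02 to 0.48, edgeR adjusted p = 0.328).

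Cyp51, lanosterol demethylase, begins the conversion of lanosterol to cholesterol (chr5:4081145-4104746, - strand, with exons overlapping Akap9 on the other strand). Its lowest, median and highest levels were 63.6, 79.5 and 84.7 CPM in Cre- 30°C, 64.8, 71.5 and 79.4 in BATdKO 30°C, 70.9, 74.5 and 80.8 in Cre- 8°C, and 64.5, 78.5 and 89.7 in BATdKO 8°C. The groups overlapped in every comparison. The change with cold in BATdKO was 0.12 (95% interval -0.04 to 0.29) and in Cre- -0.02 (-0.18 to 0.15).

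**Figure D2:**
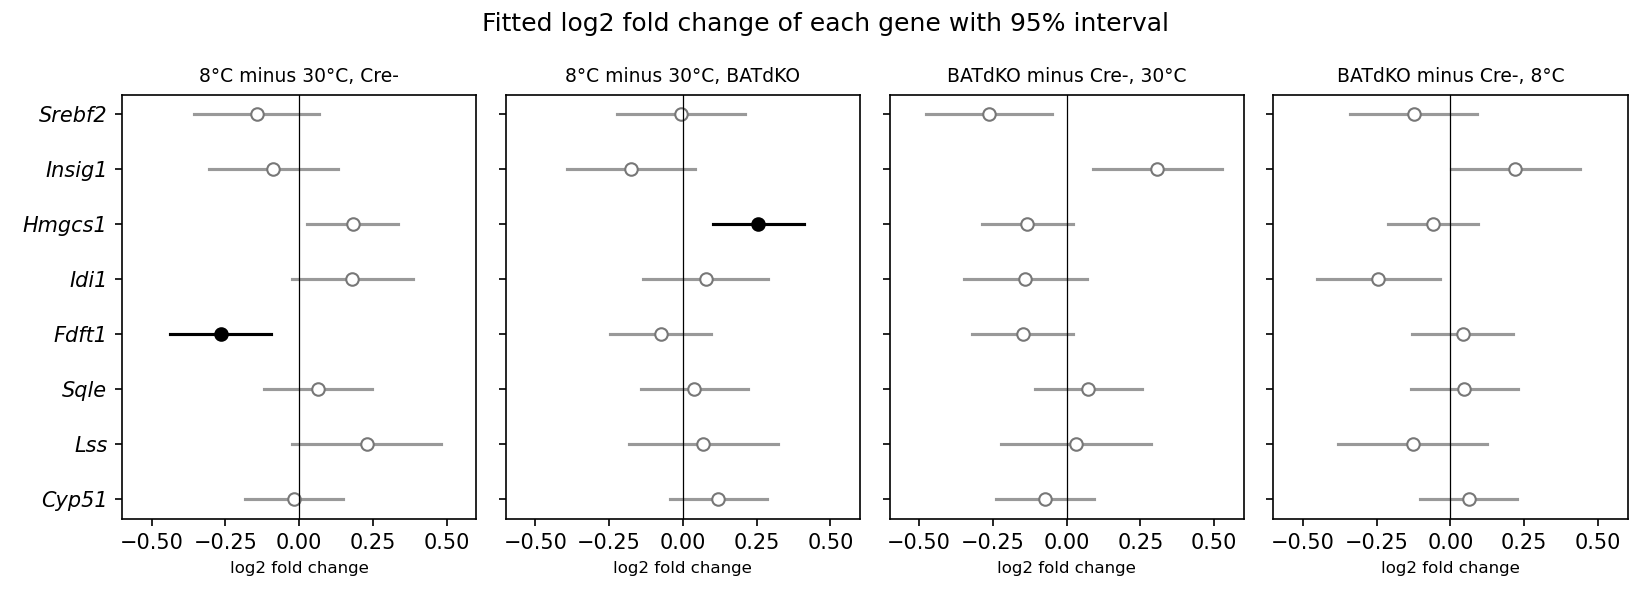
Fitted log2 fold change of each gene (horizontal axis) with its 95% interval in 4 comparisons, all from 1 fit to 24 libraries. Filled symbols passed an adjusted p of 0.1, which held for Fdft1 with cold in Cre- (-0.27) and Hmgcs1 with cold in BATdKO (0.26); open symbols did not.

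At most 1 of the 8 genes was called in any comparison. With cold in Cre-, 1 of 8 was called, Fdft1, where 9.15% of 12485 genes were called in either direction and 3.59% lower. With cold in BATdKO, 1 of 8 was called, Hmgcs1, where 7.07% were called and 3.76% higher. Those same genes were the 1 of 8 whose groups did not overlap in each comparison, where 2.93% of all genes in Cre- and 2.99% in BATdKO did not overlap. A single gene of 8 is too few to set apart from these shares. The 2 cold comparisons share no libraries, but each genotype comparison shares 1 group with each of them.

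With genotype, edgeR called 0 of 8 at 8°C, where 1.82% of genes were called, and 0 of 8 at 30°C, where 0.0% were. DESeq2 also called 0 of 8 in both. At an unadjusted p under 0.05 edgeR gave 2 of 8 at 8°C, Idi1 and Insig1, against 9.24% of all genes, and 2 of 8 at 30°C, Insig1 and Srebf2, against 10.4%. None of the 8 had non-overlapping groups by genotype, which 1.95% of genes had at 8°C and 0.296% at 30°C. For the interaction edgeR and DESeq2 called 0 of 8, with 0 of 8 at an unadjusted p under 0.05, and edgeR called 0.0961% of genes. The 95% intervals of the 8 genes in the 4 comparisons reached no lower than -0.48 and no higher than 0.53 on the log2 scale. The median log2 difference of the 8 was 0.02 with cold in Cre- and 0.05 in BATdKO, where the medians of all genes were -0.02 and -0.0026.

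Few other genes of the pathway passed the test. Among all 12485 genes, edgeR called 695 higher with cold in Cre- and 470 in BATdKO. At an unadjusted p under 0.05, in either direction, it gave 2327 of all genes with cold in Cre- and 2145 in BATdKO. By genotype these counts were 1153 at 8°C and 1303 at 30°C, and for the interaction 1005. Of 15 other cholesterol synthesis enzymes, 0 were called by edgeR with cold in Cre- (1 at an unadjusted p under 0.05, and 1 by DESeq2). In BATdKO 12 of 15 had higher means at 8°C, 4 had an unadjusted p under 0.05 and 2 rose, Nsdhl (0.28, SE 0.09, edgeR adjusted p = 0.0722) and Sc5d (0.21, SE 0.06, adjusted p = 0.0599), which remove a methyl group and desaturate late sterols. This is the contrast in which 10 of 12 hepatocyte markers had higher means. With their level as a covariate, Nsdhl changed by 0.17 (edgeR adjusted p = 0.450) and Sc5d by 0.12 (adjusted p = 0.367), and without both 30°C m6 mice Nsdhl changed by 0.27 (adjusted p = 0.104) and Sc5d by 0.21 (adjusted p = 0.0927). Of 11 genes of SREBP processing and sterol sensing, edgeR and DESeq2 each called 0 in the 5 comparisons. At an unadjusted p under 0.05 edgeR gave 0 with cold in Cre- and 2 in BATdKO, 0 and 1 by genotype at 8°C and 30°C, and 1 for the interaction. The median change of the 15 enzymes with cold was 0.02 in Cre- and 0.06 in BATdKO.

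Of 7 other SREBP2 targets of uptake, transport and acetyl supply, 2 rose with cold in both genotypes. They were Aacs, which activates acetoacetate for lipid synthesis, and Acly, which splits citrate to acetyl-CoA and belongs to the lipogenic list as well. Aacs had 15.3 ± 4.19 CPM in Cre- 30°C, 11.9 ± 1.72 in BATdKO 30°C, 32.7 ± 9.41 in Cre- 8°C and 19.8 ± 2.72 in BATdKO 8°C (SD, n = 6 each). It rose with cold by 1.15 (SE 0.18, edgeR adjusted p = 7.17e-05) in Cre- and 0.75 (SE 0.18, adjusted p = 0.0138) in BATdKO, and was lower in BATdKO at 8°C by -0.71 (SE 0.17, adjusted p = 0.0333).

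Of 12 SREBP1 and lipogenic genes, 7 rose with cold in Cre- and 5 in BATdKO, with median changes of 0.81 and 0.32. Of all 12485 genes, 695 and 470 were called higher in these comparisons. Scd1, a fatty acid desaturase, changed by -0.07 in Cre- and -0.22 in BATdKO, and Pnpla3 by -0.12 and -0.45, and none of these passed the test. The genes that rose in Cre- included Me1 (1.02, SE 0.12, edgeR adjusted p = 1.26e-06), which supplies NADPH, Acacb (0.95, SE 0.13, adjusted p = 1.88e-05), a mitochondrial acetyl-CoA carboxylase, Thrsp (0.88, SE 0.12, adjusted p = 2.67e-05), Elovl6 (1.39, SE 0.20, adjusted p = 2.87e-05), a fatty acid elongase, and Fasn (0.84, SE 0.15, adjusted p = 0.000666), fatty acid synthase. At 8°C Acaca (-0.91, SE 0.20, edgeR adjusted p = 0.0153) and Fasn (-0.60, SE 0.15, adjusted p = 0.0511) were lower in BATdKO, where 140 of 12485 genes were called lower. In that comparison 9 of the 12 lipogenic genes had a negative fitted difference and 3 a positive one. The values ran from -0.91 to 0.70, with 0 called higher. Whether the lists differed from the 8 genes was not tested.

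**Figure D3:**
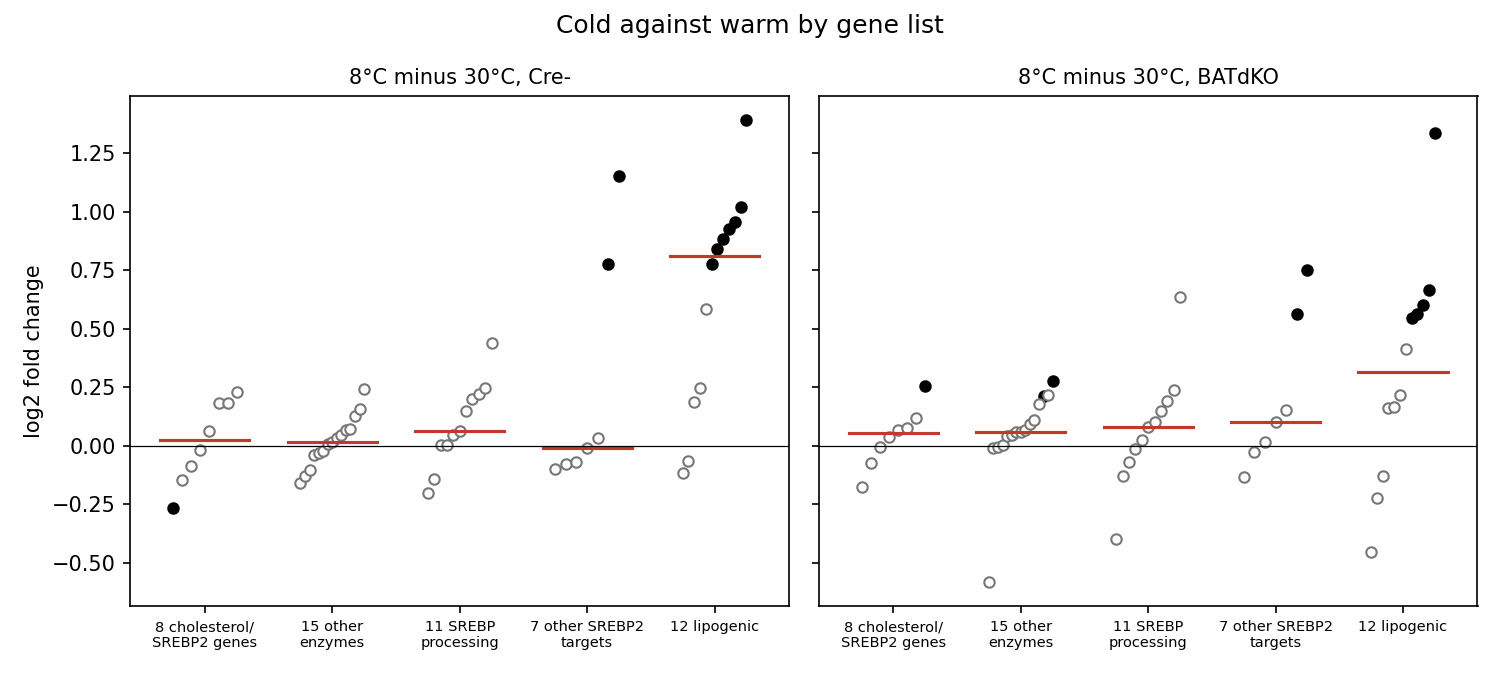
Log2 change with cold (vertical axis) of each gene in 5 lists, in Cre- on the left and BATdKO on the right; filled points passed an adjusted p of 0.1 and red lines are medians. The 8 cholesterol and SREBP2 genes have medians of 0.02 and 0.05 and the 12 lipogenic genes of 0.81 and 0.32.

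Across libraries the 8 genes moved together only in part. Over the 28 pairs, the median Pearson r of log2 CPM was 0.07 in 24 libraries (-0.20 to 0.61), and of deviations from group means 0.18 (-0.32 to 0.54), given as descriptions. The highest values in 24 libraries were those of Hmgcs1 and Idi1 (0.61), Hmgcs1 and Lss (0.54) and Idi1 and Lss (0.51). Srebf2 had an r of -0.02 with Hmgcs1. All points share library depth and normalization.

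Deviations of Hmgcs1 followed those of the 12 hepatocyte markers within groups. Pearson's r was 0.80 (permutation p = 9e-05, 100000 resamples within groups, two-sided; adjusted p = 0.00144 over 16 relations, 8 genes by 2 marker lists) and Spearman's rho was 0.71 (permutation p = 0.00073, adjusted p = 0.0076) in 24 libraries. Without the 2 libraries farthest from the median marker level r was 0.77. It was 0.89 among the 12 libraries at 30°C and 0.55 among the 12 at 8°C, which hold separate blocks of library numbers. Cyp51 had an r of 0.62 (permutation p = 0.00458, adjusted p = 0.0244), a rho of 0.60 (p = 0.005, adjusted p = 0.0267) and 0.52 without those 2. Fdft1 had an r of 0.54 (permutation p = 0.0192, adjusted p = 0.0763), a rho of 0.49 (p = 0.0317, adjusted p = 0.127) and 0.52 without them, and Sqle an r of 0.47 (permutation p = 0.0302, adjusted p = 0.0806), a rho of 0.36 (p = 0.0984, adjusted p = 0.225) and 0.29 without them. Insig1 had an r of 0.08 (permutation p = 0.754, adjusted p = 0.805) and a rho of 0.08 (p = 0.742, adjusted p = 0.791). The temperature of a library and its block of numbers cannot be told apart.

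Against the 10 brown adipocyte markers, deviations of Cyp51 ran the opposite way, with an r of -0.63 (permutation p = 0.00375, adjusted p = 0.0244 over the same 16 relations) and a rho of -0.72 (p = 0.00095, adjusted p = 0.0076). Without the 2 libraries farthest from the median marker level r was -0.60, and it was -0.66 at 30°C and -0.69 at 8°C. Sqle had an r of -0.44 (permutation p = 0.0238, adjusted p = 0.0763) and a rho of -0.40 (p = 0.0558, adjusted p = 0.179), and -0.49 without those 2. Hmgcs1 had an r of -0.13 (permutation p = 0.721, adjusted p = 0.805) and a rho of -0.25 (p = 0.295, adjusted p = 0.492), and no other of the 8 genes had an adjusted p under 0.1 with these markers. For Insig1 r was 0.44 (permutation p = 0.0848, adjusted p = 0.157) and rho 0.15 (permutation p = 0.521, adjusted p = 0.604). Its r was 0.25 without those 2 libraries, 0.53 at 30°C and 0.03 at 8°C.

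**Figure D4:**
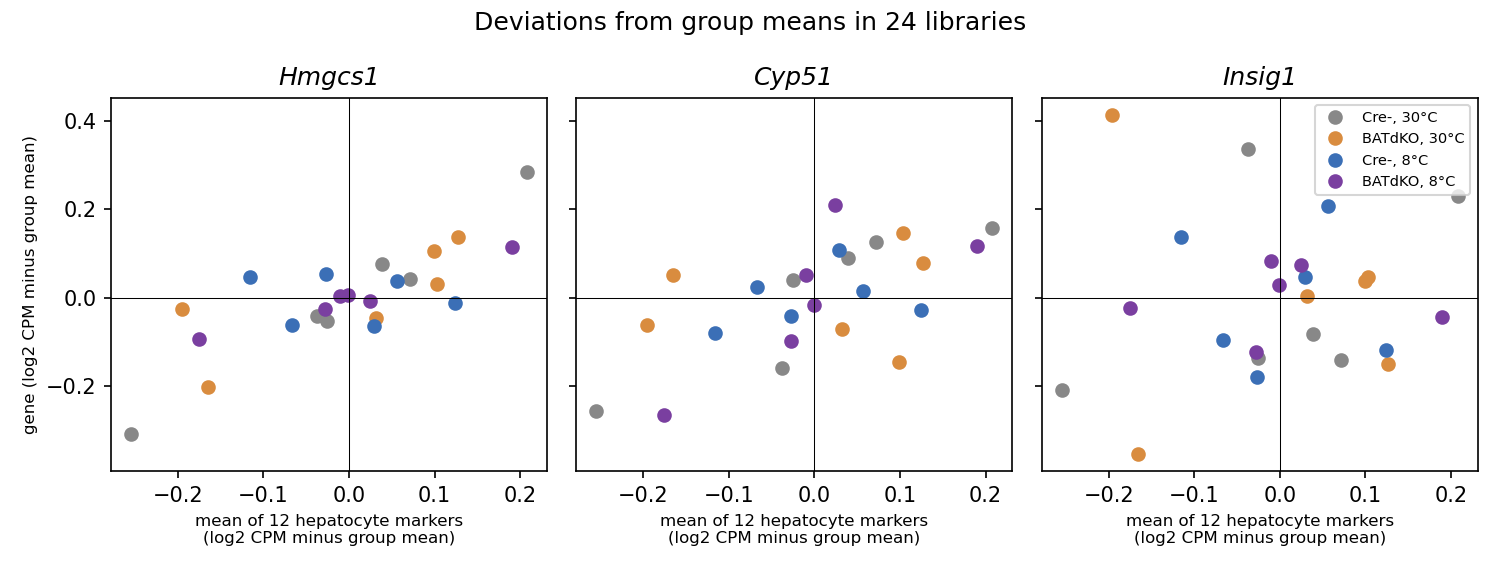
Deviation of Hmgcs1, Cyp51 and Insig1 from their group mean (vertical axis, log2 CPM) against that of the mean of 12 hepatocyte markers (horizontal axis, log2 CPM) in 24 libraries, coloured by group. Hmgcs1 follows the markers with an r of 0.80 and Insig1 with an r of 0.08.

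Among the genes outside the 8 whose log2 CPM was most like the mean of the 8 standardised genes over 24 libraries were Serpind1 (r = 0.82), Xylb (0.80), Hoga1 (0.80), Ahsg (0.78), Fga (0.78), Cyb5a (0.77), Hc (0.77), Oat (0.77) and Cyp4a14 (0.77). Ahsg and Fga, which encode plasma proteins, belong to the hepatocyte list. By deviations from group means the first 10 were Akr1c20, Xylb, Serpind1, Cyp4a14, C1galt1c1, Itga9, Hoga1, Nudt7, Ahsg and Edem1, with r from 0.79 to 0.82. Msmo1, another sterol enzyme, ranked 113 over the 24 libraries (r = 0.66) and 56 by deviations (r = 0.71).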

How the data were processed

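QuantSeq FWD libraries, which read the 3′ ends of transcripts, were made from 24 mice. The authors trimmed (BBDuk) and aligned (STAR, GRCm38) the reads and deposited raw counts per gene from Rsubread; the annotation release and strand setting are not given in the sources used here. From these counts, TMM normalization, filterByExpr (12485 genes kept, 130 removed) and 1 quasi-likelihood fit with 4 group means were run in edgeR 4.0.16 (R 4.3.3), with Benjamini-Hochberg adjustment over all tested genes and a threshold of 0.1; DESeq2 1.42.0 was an alternative. Standard errors and intervals were derived from the F statistic, and for some genes, Cyp51 and Idi1 among them, edgeR's p is larger than they imply. Log2 CPM used a prior count of 2. The code was tested on simulated data. Positions are from GENCODE vM21. The 8 genes and all lists were chosen with earlier results of these data known. Named were the 8 genes, called genes of each list (at most 6, by smallest p) or the smallest p, and the 10 most alike genes; Msmo1, Alb and Ctsb were named after values were seen. Some genes that this rule names are not reported here.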

Additional observations from a re-analysis of the deposited data

Results flagged for a closer look

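Of 32 combinations of a gene and a group of 6 mice, 2 held a mouse that stood apart from the other 5 by Dixon's test at the 95% level, and chance flags about 1 in 20 such groups. The Fdft1 level of Cre- 30°C m2 was 60.7 CPM, the highest of that group, and the cold call of Fdft1 in Cre- was lost without it. The Lss level of Cre- 30°C m4, the library with 699703 counts, was 20.5 CPM.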

How the results depend on the processing

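No paired analysis was possible because mouse numbers are not shared between groups. Of 1272 refits of the 40 gene-by-comparison values, 1236 kept direction and call, 8 lost a call, 5 gained one and 23 changed sign, with 0 of those called. Counts of list genes stayed within 1.5 times in 1193 of 1272 refits, where a count of 0 in both fits was held as unchanged. Many refits left out a mouse that is not in the comparison, so these totals say little about how stable a call is.

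Among the 8 genes, the number called with cold in Cre- was 2 with DESeq2 and 2 with the hepatocyte covariate. With cold in BATdKO it was 0 with that covariate and 0 without both 30°C m6 mice, which gave 1 by genotype at 30°C. Leaving out 1 mouse at a time gave 0 to 2 with cold in Cre-, 0 to 1 in BATdKO and 0 to 1 by genotype at 30°C. Among all genes, genotype at 8°C gave 477 with only its 2 groups fitted. Genotype at 30°C gave 90 with DESeq2, 5 with the covariate and 500 without both m6 mice. Cold in BATdKO gave 560 with the covariate. The interaction gave 51 with DESeq2, 21 with robust dispersion and 44 without both m6 mice. With 1 mouse left out at a time, the count of all genes ranged from 138 (without BATdKO 8°C m5) to 276 for genotype at 8°C, from 0 to 369 (without Cre- 30°C m6) for genotype at 30°C, from 574 (without BATdKO 8°C m4) to 1069 for cold in BATdKO and from 7 to 37 for the interaction. At 30°C it was also 67 without Cre- m2, 47 without BATdKO m4, 41 without BATdKO m6, and 1, 2 and 3 without Cre- m4, Cre- 8°C m3 and BATdKO 8°C m6. The interaction count was 35, 32, 37 and 21 without Cre- 30°C m1, Cre- 30°C m6, Cre- 8°C m2 and BATdKO 30°C m4, and 7 without BATdKO 30°C m2, Cre- 8°C m5 or BATdKO 8°C m5. The cause of these shifts was not tested.

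With the hepatocyte covariate the log2 values were -0.015 for Fdft1 and -2.5e-05 for Cyp51 by genotype at 8°C, 0.0022 for Cyp51 with cold in Cre-, 0.053 for Srebf2, -0.00011 for Idi1, -0.041 for Sqle and -0.017 for Lss with cold in BATdKO, and -0.081 for the Hmgcs1 interaction. Srebf2 with cold in BATdKO was 0.0013 with DESeq2 and 0.028 without both m6 mice, and the Sqle interaction was 0.0078 without both. With 1 mouse left out, ranges that crossed 0 were -0.0042 to 0.085 for Lss by genotype at 30°C, -0.072 to 0.013 for Cyp51 with cold in Cre-, -0.049 to 0.027 for Srebf2 and -0.027 to 0.074 for Sqle with cold in BATdKO, and -0.18 to 0.0049 for the Insig1 and -0.092 to 0.0067 for the Sqle interaction. Depth limits Idi1, Lss, Sqle and Srebf2 most, whose counts fell to between 9 and 15 in the shallowest library.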

Other observations

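Branches that leave the cholesterol pathway or remove cholesterol were measured too. Of 8 measured prenyl and dolichol genes, 1 was called, Pdss2, a subunit of the enzyme that builds the coenzyme Q tail, which rose with cold in BATdKO (0.39 on the log2 scale, SE 0.13, edgeR adjusted p = 0.0935), from 10.3 ± 1.32 to 13.5 ± 1.79 CPM (SD, n = 6 each). In that comparison 3.76% of all genes were called higher. Of 9 measured genes of LXR targets, efflux and esterification, 1 was called, Abca1, the cholesterol efflux transporter, which was higher in BATdKO at 8°C by 0.46 (SE 0.09, edgeR adjusted p = 0.00761). Its levels at 8°C were 37.8 ± 2.96 CPM in Cre- and 52.0 ± 3.27 in BATdKO (SD, n = 6 each), and these groups did not overlap. Of all genes, 1.82% were called by genotype at 8°C and 1.95% had groups that did not overlap. At 30°C the Abca1 difference was 0.37 (SE 0.09, edgeR adjusted p = 0.149). Its interaction was 0.09 (SE 0.13, edgeR adjusted p = 0.922), so the 2 differences were not shown to differ. Of the 12 lipogenic genes, 12 had a negative interaction, with a median of -0.29 and 0 called by edgeR. At an unadjusted p under 0.05 edgeR gave 3 of the 12, against 1005 of 12485 genes. The interaction was also negative for 9 of 10 brown adipocyte markers (median -0.35) and positive for 12 of 12 hepatocyte markers (median 0.22), so the shared sign is not particular to the lipogenic genes.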
